A study of Homo sapiens with 26 samples.

Results

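The very wide FOXA1 peaks are the rows of the deposited FOXA1 peak list on chromosomes 1 to 22 that were chosen by their width, 1000 bp or more. There were 2332 of them among 155652 rows in all, 153247 of which lay on these chromosomes, so that 1.52% of the rows there were very wide. They came from chromatin immunoprecipitation with sequencing (ChIP-seq, which recovers the DNA that a protein is bound to) in BJ cells, a line of human foreskin fibroblasts. The cells carried a HALO-tagged protein for 48 h of ectopic expression, and the ChIP libraries were made with an antibody to the tag. The constructs compared here were FOXA1, its variants FOXA1dbd, FOXA1nhaa and FOXA1rraa, and HNF4A, a liver factor of another family. The labels do not spell out the 3 variant names, give 2 ChIP libraries and their inputs per construct, and attach 1 peak list to each construct. Widths and peak positions therefore have no replicate error here, and the intervals given here reflect the number of peaks alone. No list states how many reads it rests on, and expression of fibroblast markers was not measured in these files.

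FOXA1 is a forkhead protein known for pioneer activity, the binding of its target sequence in compacted, nucleosomal chromatin. It acts in liver, prostate and breast enhancers and is not a normal fibroblast factor. Its winged-helix domain recognises a short A/T-rich core. AP-1, a dimer of FOS and JUN family proteins, occupies many active enhancers of fibroblasts and binds a different, palindromic core. A peak caller marks an interval where read density stays above background, so a very wide row can hold 1 broad zone of enrichment or several neighbouring sites.

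A set of 4 windows of 200 bp shows what the DNA inside these peaks looks like, on the + strand of hg19 (GRCh37). They are the windows with the most forkhead or AP-1 cores in the widest peak, the peak of highest score, the peak with the most forkhead cores and the peak with the most AP-1 cores. The forkhead core was TATTTAC or TGTTTAC on either strand, which reads GTAAATA or GTAAACA on the opposite strand, and it occurred in 7.28% of all 200 bp tiles of chromosomes 1 to 22. The AP-1 core was TGACTCA or TGAGTCA on either strand, which occurred in 3.07% of tiles. Capitals mark the cores, forkhead in the first 3 windows and AP-1 in the last.
Widest peak, ARID5B intron, chr10:63734506-63734705: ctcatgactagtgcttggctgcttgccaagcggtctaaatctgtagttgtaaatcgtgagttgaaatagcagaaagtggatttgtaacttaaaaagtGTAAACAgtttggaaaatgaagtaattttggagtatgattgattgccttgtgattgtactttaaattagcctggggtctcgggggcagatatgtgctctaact
Highest score, between genes, chr3:46949387-46949586: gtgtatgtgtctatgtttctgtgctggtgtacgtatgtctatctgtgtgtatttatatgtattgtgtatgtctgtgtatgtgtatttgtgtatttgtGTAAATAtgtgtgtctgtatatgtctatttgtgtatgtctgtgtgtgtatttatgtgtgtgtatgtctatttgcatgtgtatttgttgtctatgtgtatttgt
Most forkhead cores, between genes, chr12:48027788-48027987: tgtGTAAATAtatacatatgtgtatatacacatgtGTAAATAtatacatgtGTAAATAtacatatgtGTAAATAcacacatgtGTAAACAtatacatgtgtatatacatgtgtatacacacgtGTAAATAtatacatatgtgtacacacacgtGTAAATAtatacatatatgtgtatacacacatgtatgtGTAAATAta
Most AP-1 cores, PTPRM intron, chr18:8116415-8116614: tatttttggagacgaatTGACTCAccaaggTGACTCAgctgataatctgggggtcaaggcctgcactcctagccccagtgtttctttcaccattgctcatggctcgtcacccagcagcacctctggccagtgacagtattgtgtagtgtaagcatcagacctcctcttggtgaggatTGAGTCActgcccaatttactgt
The window of the widest peak held a single GTAAACA in mixed sequence. The window of the highest-scoring peak held 1 core within a run of gt-rich sequence, and that of the peak with the most cores held 8 within a run of alternating ta and gt-rich units. The AP-1 window had 2 cores close together and the third near its far end. A match describes the letters and does not show that the factor was bound there.

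Width chose these peaks, and the authors' score comes from the same peak call, so both are given as a description. The median width was 1149 bp, with quartiles of 1063 and 1291 bp, and the widest row spanned 2698 bp. Most of the peaks, 2104, were narrower than 1500 bp and 228 were wider. Together they covered 2.84 Mb, or 5.26% of the bases under FOXA1 rows of chromosomes 1 to 22. The 4 rows of exactly 1000 bp had scores of 215 to 354, and the 12 rows of 999 bp just outside the threshold had scores of 141 to 761. The 483 peaks from 1000 bp up to under 1050 bp had a median score of 272, and the 611 rows from 950 bp up to under 1000 bp had a median of 278. The threshold therefore cuts through a continuous range of rows.

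The median score of the very wide peaks was 289, with quartiles of 215 and 385 and a range of 63 to 1518. The median over the whole list was 124, and 2264 of the very wide peaks (97.1%) lay above it. Those in the highest-scoring 10% of the list numbered 1169 (50.1%). Among the very wide peaks themselves, width and score were only weakly related (Spearman's rho 0.104), against a rho of 0.641 over all rows of chromosomes 1 to 22. Both values describe rows of 1 list in which width and score share the same reads.

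**Figure D1:**
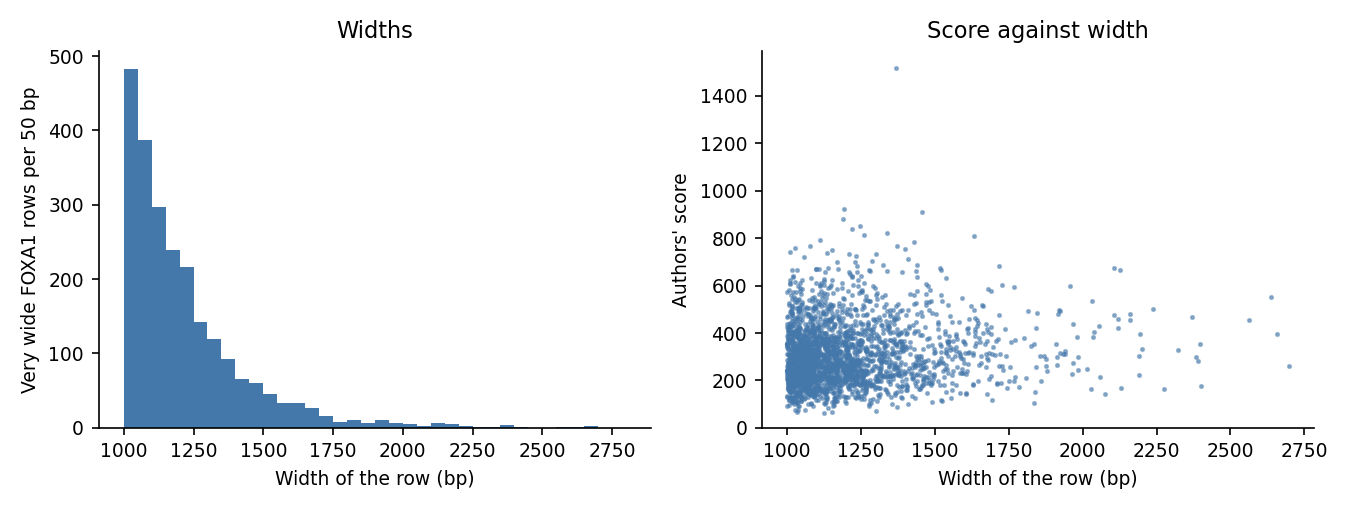
The left panel counts very wide FOXA1 rows in 50 bp steps of width (bp), and the right panel plots the authors' score of each against its width, 1 point per row. Rows just above 1000 bp are the most numerous, and the row of score 1518 stands above the others, none of which exceeds 925.

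The 5 widest peaks lay in genes. The widest, 2698 bp with a score of 259, covered chr10:63733382-63736079 in an intron of ARID5B, a DNA-binding cofactor gene, 73288 bp from that gene's start, and held 2 FOXA1nhaa peaks and no FOXA1dbd peak. The next, 2657 bp with a score of 394, was centred on an annotated exon of ADAM9, which encodes a membrane metalloprotease, and held 3 FOXA1nhaa peaks and 1 HNF4A peak. The peak at chr3:185537890-185540526, 2637 bp in an intron of IGF2BP2, an RNA-binding protein gene, had a score of 553. It held 2 FOXA1dbd, 3 FOXA1nhaa and 1 HNF4A peak and was the highest-scoring very wide peak touched by all 4 other lists. A 2563 bp peak at chr4:39700730-39703292 in an intron of UBE2K, a ubiquitin-conjugating enzyme gene, had a score of 457 and 5 forkhead cores. The fifth, 2401 bp at chr2:190021019-190023419, lay in an intron of the collagen gene COL5A2 with a score of 177. Scores of these 5 thus ran from below the lower quartile of the very wide peaks to above their upper quartile.

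The highest score, 1518, belonged to a 1370 bp peak between genes at chr3:46948550-46949919, 25567 bp from the start of MYL3. Its GC content was 43.3%, against a median of 32.4% for all very wide peaks, and its flanks had 53.8%. The next in score were a peak of 925 in an intron of RPF1, a ribosome biogenesis gene, and a peak of 910 in an intron of the noncoding gene COMETT, 46667 bp from the start of the caveolin gene CAV1. They were followed by a peak of 879 in an intron shared by MEMO1 and DPY30 and by one of 850 between genes, 38643 bp from the start of the interferon-induced gene IFI44. Between 1 and 2 FOXA1nhaa peaks lay inside each of these 5. The RPF1 peak held no FOXA1dbd peak, and the other 4 held 1 or 2.

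Base composition set the very wide peaks apart from their own surroundings. Their median GC content of 32.4% compared with 37.6% in windows of the same width placed 5 kb to either side, and with 41.0% over chromosomes 1 to 22. GC was below that of the flanks in 91.5% of them, against 87.3% of the FOXA1 rows from 500 bp up to under 1000 bp, of which there were 25566 and which serve as the comparison set below. The median GC of that set was 32.5%, so the peaks themselves were alike in composition at both widths. No very wide peak contained unknown bases, and 9 lay within 100 kb of a run of at least 1000 unknown bases.

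Very wide peaks sat among other FOXA1 rows. The median number of other FOXA1 rows within 10 kb was 4, against 3 in the comparison set and 2 around rows under 300 bp. The share with no other row within 10 kb was 6.13%, against 10.9% of the comparison set. The nearest other very wide peak was at a median of 116 kb, and 791 (33.9%) had another within 50 kb. Linking such neighbours gave 342 groups of 2 or more, 7 groups of 5 or more, and a largest group of 9. The list's own names also tie rows together. For 234 of the very wide peaks the peak name stood on other rows too, on up to 5 in all, separated by a median gap of 130 bp and never less than 73 bp. Joining rows of the same name raised the number of very wide peaks from 2332 to 3762.

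The variants' lists showed how many of the very wide peaks also overlapped a peak of a FOXA1 variant by at least 1 bp. Over the whole row, 89.9% of the very wide peaks overlapped a FOXA1rraa peak, 87.0% a FOXA1nhaa peak, 45.6% a FOXA1dbd peak and 3.39% (79 peaks) an HNF4A peak. In the comparison set these shares were 71.9%, 66.8%, 29.4% and 2.202%. All 3 variants overlapped 924 very wide peaks (39.6%), and none of the 4 other lists overlapped 58 (2.49%), against 20.8% and 13.7% of the comparison set. These shares use the FOXA1rraa list as deposited, which repeats some FOXA1 rows, as described below. The peaks met by none had a median width of 1085 bp and a median score of 211. The highest-scoring of them, at 429, lay in an intron of OCIAD2 at chr4:48900102-48901118 and spanned 1017 bp without a forkhead core. A longer row offers more bases to overlap, so whole-row shares rise with width by construction.

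A central window of 200 bp gives every row the same number of bases, and there the differences from the comparison set were smaller. The window is a smaller part of a wider row and sits at the midpoint. Within 100 bp of the midpoint lay 15.0% of FOXA1nhaa summits (points of highest signal), against 43.3% in the comparison set. For FOXA1dbd summits the shares were 15.3% and 46.1%. Central shares thus describe the midpoint and not the whole peak, and the part of this placement in the differences was not tested. FOXA1nhaa peaks overlapped 68.6% of the central windows of very wide peaks and 62.1% of those of the comparison set, a difference of 6.43 percentage points (Newcombe 95% interval 4.43 to 8.38). The difference was positive on 17 of 22 chromosomes. For FOXA1rraa the shares were 73.7% and 69.0%, 4.71 points apart (2.80 to 6.54), and positive on 20 of 22 chromosomes. For FOXA1dbd they were 24.0% and 25.7%, a difference of -1.67 points with an interval of -3.44 to 0.18, and for HNF4A 0.858% and 1.17%, a difference of -0.31 points (-0.64 to 0.17). The FOXA1dbd difference was negative on 14 of 22 chromosomes and the HNF4A difference on 16. An interval that holds 0 leaves differences of the sizes it spans undetected at these numbers.

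Some FOXA1rraa rows are not separate peaks. On chromosomes 1 to 22, 22823 rows of that list had the coordinates of a FOXA1 row, among them 235 of the very wide peaks. Leaving those rows out gave whole-row overlaps of 79.8% of the very wide peaks and 54.5% of the comparison set. The central 200 bp overlaps were then 63.6% and 51.7%, 11.98 points apart (9.91 to 14.0). That central difference was positive on 21 of 22 chromosomes. Score also moved with the result. Within the highest-scoring 10% of FOXA1 rows, where 1169 very wide peaks met 7927 rows of the comparison set, the FOXA1nhaa difference was -0.40 points (-3.13 to 2.19), the FOXA1rraa difference -4.38 (-6.89 to -2.05) with the list as deposited and the FOXA1dbd difference -7.87 (-10.6 to -5.00). With the shared rows removed, the FOXA1rraa difference there was 2.57 points (-0.25 to 5.25). Among the lower-scoring rows, 1163 very wide peaks and 17639 comparison rows, FOXA1nhaa overlapped 62.3% and 56.2% of central 200 bp windows. FOXA1rraa overlapped 67.24% and 62.03% of them with the list as deposited, and 54.8% and 43.5% with the shared rows removed. FOXA1dbd overlapped 19.3% and 20.8%. The differences among lower-scoring rows have no interval here. In a central window of 100 bp the FOXA1nhaa difference was 1.40 points (-0.69 to 3.46), the FOXA1rraa difference -0.31 (-2.33 to 1.66) with the list as deposited and the FOXA1dbd difference -3.27 (-4.91 to -1.53). With the shared rows removed, the FOXA1rraa difference was 6.96 points (4.85 to 9.05). Against all FOXA1 rows under 1000 bp the central 200 bp differences were 30.3 points for FOXA1nhaa (28.4 to 32.2), 35.0 for FOXA1rraa (33.2 to 36.8) and 7.72 for FOXA1dbd (6.02 to 9.51).

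**Figure D2:**
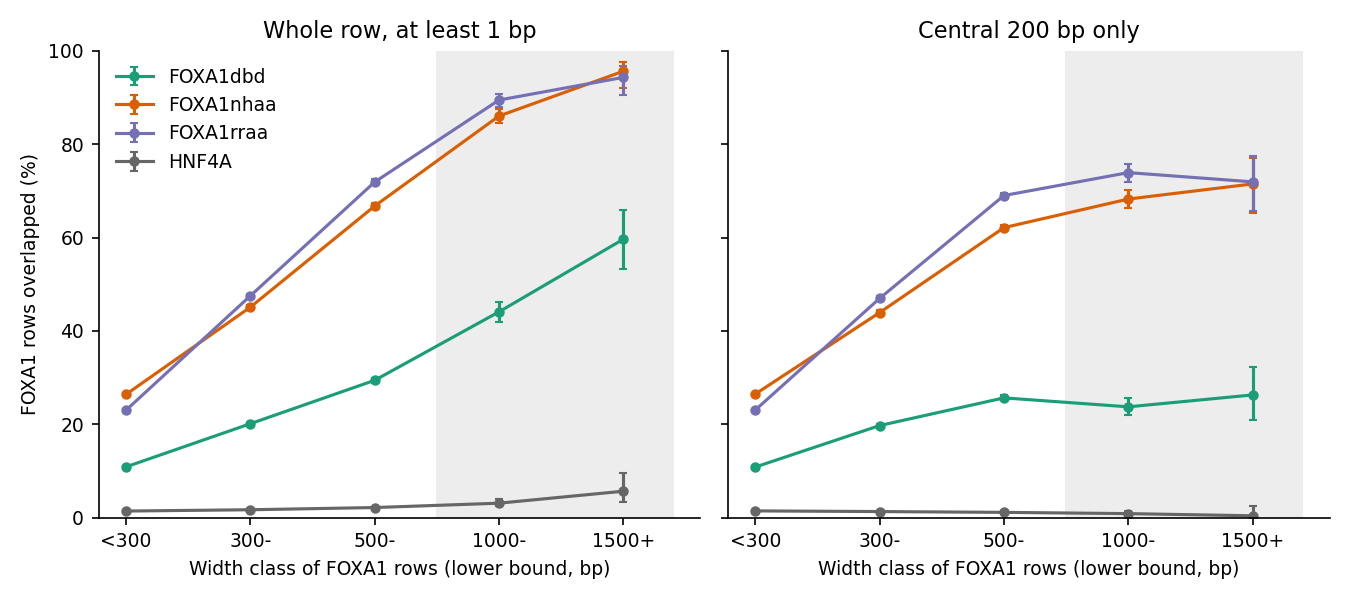
The share of FOXA1 rows (%) overlapped by each other list is plotted by width class, over the whole row (left) and in the central 200 bp (right), with Wilson 95% intervals as bars and the very wide classes shaded. Over the whole row FOXA1dbd reaches 59.6% at 1500 bp or more, whereas its central share in the same peaks is 26.3%.

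Within the very wide peaks the variants often had several peaks where the FOXA1 list had 1. A total of 2724 FOXA1nhaa peaks touched 2028 very wide peaks, of which 592 held 2, 49 held 3 and 2 held 4. Those with 2 or more made up 31.7% of the peaks touched, against 5.43% in the comparison set. For FOXA1dbd 218 of 1064 (20.5%) held 2 or more, against 4.57%, and for the FOXA1rraa peaks that are not FOXA1 rows 447 of 1862 (24.0%), against 3.77%. These counts rise with the room in the row. The peak at chr4:103744557-103746172 in an intron of UBE2D3, a ubiquitin-conjugating enzyme gene, was the one named for the most FOXA1nhaa peaks, with 4 in 1616 bp and a score of 322. Each of the 79 peaks touched by HNF4A held exactly 1 HNF4A peak.

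At the median the variants covered part of the interval. The FOXA1dbd peaks all lay wholly inside these rows, as described below, so their extent is bounded by the row. FOXA1nhaa peaks covered a median of 56.7% of the bases of the rows they touched and FOXA1dbd peaks 25.7%, with HNF4A peaks at 16.5%. In the comparison set these medians were 68.2%, 41.4% and 30.6%. A longer row has more bases to cover. Neighbouring FOXA1nhaa summits within 1 very wide peak were a median of 664 bp apart (593 pairs), and neighbouring FOXA1dbd summits 556 bp (222 pairs).

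Summits, the points of highest signal that the peak caller gives for each peak, did not gather at the midpoints. Per 1000 very wide peaks, 80.6 FOXA1nhaa summits fell in the 100 bp just left of the midpoint, while 112 fell in the bin centred 350 bp to the left and 114 in the bin 350 bp to the right. FOXA1dbd summits gave 42.9 just left of the midpoint, 54.9 in the left bin at 350 bp and 64.3 in the right one. Of 2576 FOXA1nhaa summits 15.0% lay within 100 bp of the midpoint, against 43.3% in the comparison set, and of 1272 FOXA1dbd summits 15.3%, against 46.1%. The binned profiles of both lists had a dip at the centre with higher bins on either side. A zone of 100 bp is a smaller part of a wider row, so the shares within it fall with width by construction.

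Scaling distance to the width of each row gave the same direction. The central 50% of the row's length held 49.5% of FOXA1nhaa summits in very wide peaks and 66.9% in the comparison set, a difference of -17.4 points (-19.5 to -15.3). For FOXA1dbd the shares were 53.2% and 72.8%, a difference of -19.6 points (-22.5 to -16.6). In rows with a single FOXA1nhaa summit the shares were 59.8% and 69.3%, 9.51 points lower (difference -9.51, interval -12.2 to -6.89), and in rows with a single FOXA1dbd summit 55.4% and 74.9% (difference -19.5, interval -23.0 to -16.0). Summits of the same row are not independent, and this comparison was added after the summit profile had been seen. The FOXA1 list itself gives no summits. The 235 very wide peaks that are also rows of the FOXA1rraa list do carry one, along with a fold enrichment of 8.83 at the median (3.43 to 17.9). Of their 226 summits inside the row 40 (17.7%, 13.3 to 23.2) were within 100 bp of the midpoint, against 49.1% in 4155 rows of the comparison set. This last distance was not scaled to width.

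**Figure D3:**
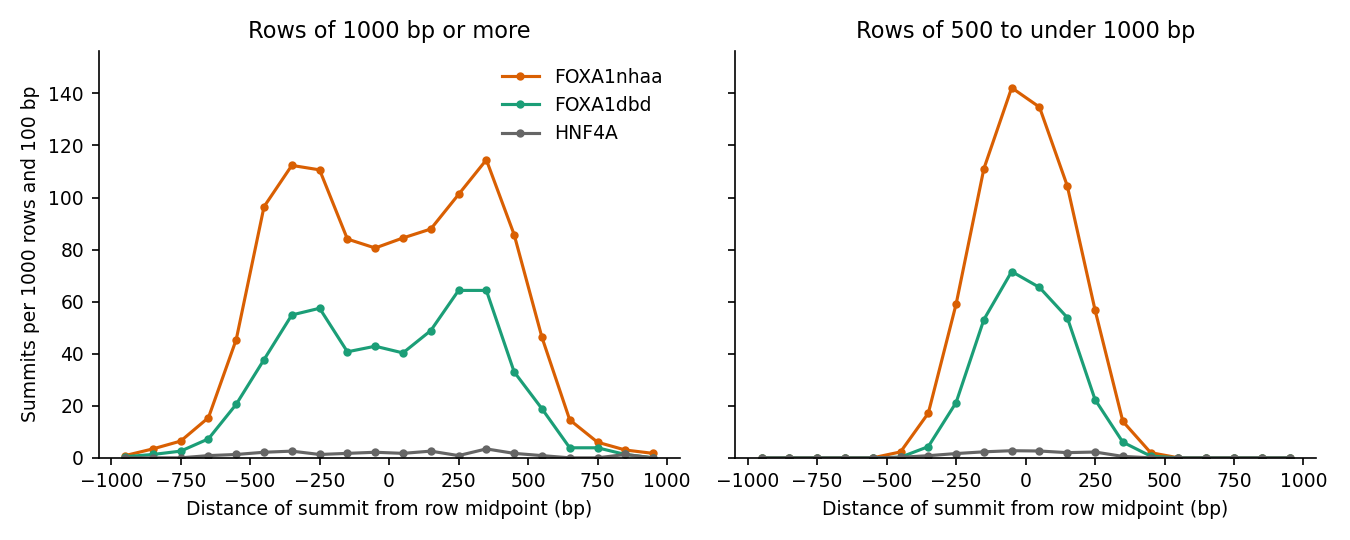
Summits of FOXA1nhaa, FOXA1dbd and HNF4A peaks per 1000 FOXA1 rows are plotted in 100 bp bins of distance (bp) from the row's midpoint, for very wide rows (left) and rows of 500 bp up to under 1000 bp (right). In very wide rows the FOXA1nhaa curve is highest at 350 bp to either side, 112 and 114 per 1000 rows, and dips to 80.6 beside the midpoint, while the narrower rows have a single central maximum.

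Peaks of the variants that touched a very wide FOXA1 peak were wider than those elsewhere. Each was counted at the widest class of FOXA1 row it touched by at least 1 bp, and a longer peak can touch more rows. This counting favours wide peaks in the widest class, and its part in the differences was not tested. Of the 2724 FOXA1nhaa peaks at very wide FOXA1 peaks 260 (9.54%, interval 8.50 to 10.7) spanned 1000 bp or more, against 3.58% at the comparison set, 1.30% at rows under 500 bp and 0.168% off FOXA1 rows. Their median width was 488 bp, against 460, 374 and 316 bp at those places. Fold enrichment followed this only in part, with medians of 6.17, 6.16, 5.88 and 5.57. For FOXA1rraa peaks that are not FOXA1 rows the shares of 1000 bp or more were 10.8% and 3.98% at the very wide peaks and the comparison set. Seen from the other side, 1502 FOXA1nhaa rows spanned 1000 bp or more, of which 260 (17.3%) touched a very wide FOXA1 peak and 1429 (95.1%) touched any FOXA1 row. Most very wide FOXA1nhaa rows thus stood on narrower FOXA1 rows.

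FOXA1dbd peaks at the very wide peaks were short, with a median of 263 bp. Only 28 FOXA1dbd rows reached 1000 bp, all 28 on very wide FOXA1 peaks, and 16 of them had exactly the coordinates of one. All 1297 FOXA1dbd peaks there lay wholly inside the FOXA1 row, so a wide FOXA1dbd row can occur in few other places.

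HNF4A, a nuclear receptor of hepatocytes that binds a core unlike that of FOXA1, had 545 rows of 1000 bp or more (1.44% of its list). Of these, 8 (1.47%) touched any FOXA1 row and 0 touched a very wide FOXA1 peak. The 79 HNF4A peaks at very wide FOXA1 peaks had a median width of 241 bp, and 0 of 79 reached 1000 bp, which allows a share of up to 3.80% (3 counts of 79, where the Wilson interval reaches 4.64%). At the comparison set 0 of 573 HNF4A peaks reached it, and off FOXA1 rows 1.52% did. The 0 of 79 cannot be told apart from these low shares. For the 545 rows of 1000 bp or more, the Wilson interval of the 0 at very wide peaks reaches 0.70%. Of all 37867 HNF4A rows, 79 touched a very wide peak, a share that lies within that interval. The median fold enrichment of the 79 was 5.24, against 5.94 for HNF4A peaks off FOXA1 rows. The strongest stood in an intron of PHACTR2 at chr6:143999548-144000642, with a fold of 29.5 and a −log10 q of 128.5, above 99.9% of the HNF4A list. The FOXA1 score there was 207, under the median of the very wide peaks. The very wide peaks with HNF4A were overlapped by FOXA1dbd in 52 of 79 cases (65.8%), against 44.9% of the 2253 without, a difference of 20.9 points (9.74 to 30.6). An AP-1 core was present in 46.8% and 28.7% of them, 18.2 points apart (7.39 to 29.2), and their median GC was 35.1% and 32.3%. The HNF4 core CAAAGTCCA, which 0.253% of all 200 bp tiles held on either strand, occurred in 1 of the 79 and in 29 of the others (1.29%). These comparisons within the very wide peaks were added after their overlaps had been seen.

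Forkhead cores were spread along the whole interval. The core occurred in 1512 of the very wide peaks (64.8%), against 43.4% of the shorter comparison rows. Per kb there were 0.928 cores in very wide peaks and 0.894 in the comparison set, a ratio of 1.04 (0.996 to 1.08), while windows 5 kb away held 0.485 and chromosomes 1 to 22 held 0.398. In the central 200 bp the core occurred in 15.5% and 16.5%, a difference of -0.98 points (-2.46 to 0.61) that was negative on 17 of 22 chromosomes. In the central 100 bp the difference was -1.48 points (-2.50 to -0.32). The same letters read backwards, CATTTAT or CATTTGT, have the same composition and were present at 1.06 per kb in very wide peaks, 0.759 in their flanks and 0.685 over the chromosomes. The forkhead core was thus 1.91 times as dense as in the flanks and its reversed form 1.40 times. By distance from the midpoint, forkhead density was 1.06 per kb in the bin 350 bp to the left and 1.01 in the bin 350 bp to the right. Between them it was 0.978 just left of the midpoint and 0.806 just right of it. It was 0.553 at 750 bp to the left and 0.540 to the right. Those points lie outside the 2104 peaks narrower than 1500 bp, so these 2 values mostly describe neighbouring DNA.

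The number of forkhead cores per peak varied widely. There were 820 very wide peaks with none, 844 with 1, 415 with 2, 179 with 3, 47 with 4 and 27 with 5 or more. In that order FOXA1dbd overlapped 41.0%, 47.6%, 48.9%, 45.8%, 55.3% and 55.6% of the groups, with no steady rise and few peaks in the last. FOXA1nhaa overlapped between 83.0% and 88.9% of each group. Median scores ran from 286 to 322, and median widths from 1124 bp with no core to 1373 bp with 5 or more, so that the longest group also had the most room for cores. The peak with 26 cores, the window of alternating ta and gt-rich units shown above, spanned 1060 bp at chr12:48027371-48028430 with a score of 232 and a GC of 27.5%. It held 1 FOXA1dbd, 1 FOXA1nhaa and 1 FOXA1rraa peak.

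AP-1 cores were less frequent at the centre of very wide peaks than in the comparison set. They occurred in 4.97% of central 200 bp windows against 6.51%, a difference of -1.54 points (-2.41 to -0.53) that was negative on 15 of 22 chromosomes. Over whole rows the density was 0.293 per kb, against 0.325 in the comparison set, a ratio of 0.902 (0.838 to 0.970), and 0.150 in the flanks of the very wide peaks. The peak with the most, 4 in 1056 bp at chr18:8116414-8117469, lay in an intron of PTPRM, a receptor tyrosine phosphatase gene. Its score was 470 and all 4 other lists touched it. In a central window of 100 bp the AP-1 difference was -0.35 points, with an interval of -0.99 to 0.42.

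Windows placed on FOXA1dbd summits held these cores more often than windows at the midpoints of the same very wide peaks. Around the strongest FOXA1dbd summit of 1050 peaks the AP-1 core occurred in 16.5% (14.4 to 18.8) and the forkhead core in 23.9% (21.4 to 26.6), whereas the midpoints of the same peaks gave 6.76% and 15.8%. Around the strongest FOXA1nhaa summit of 1983 peaks the AP-1 core occurred in 7.31% (6.25 to 8.54) and the forkhead core in 16.2% (14.7 to 17.9), against 5.24% and 14.9% at their midpoints, so that the midpoint share of the forkhead core lay within the interval at the summit. In the comparison set the shares at FOXA1dbd summits were 17.4% for AP-1 and 23.1% for forkhead. The difference between very wide peaks and comparison rows at FOXA1dbd summits was 0.84 points for forkhead and -0.88 points for AP-1, each with an interval that held 0.

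**Figure D4:**
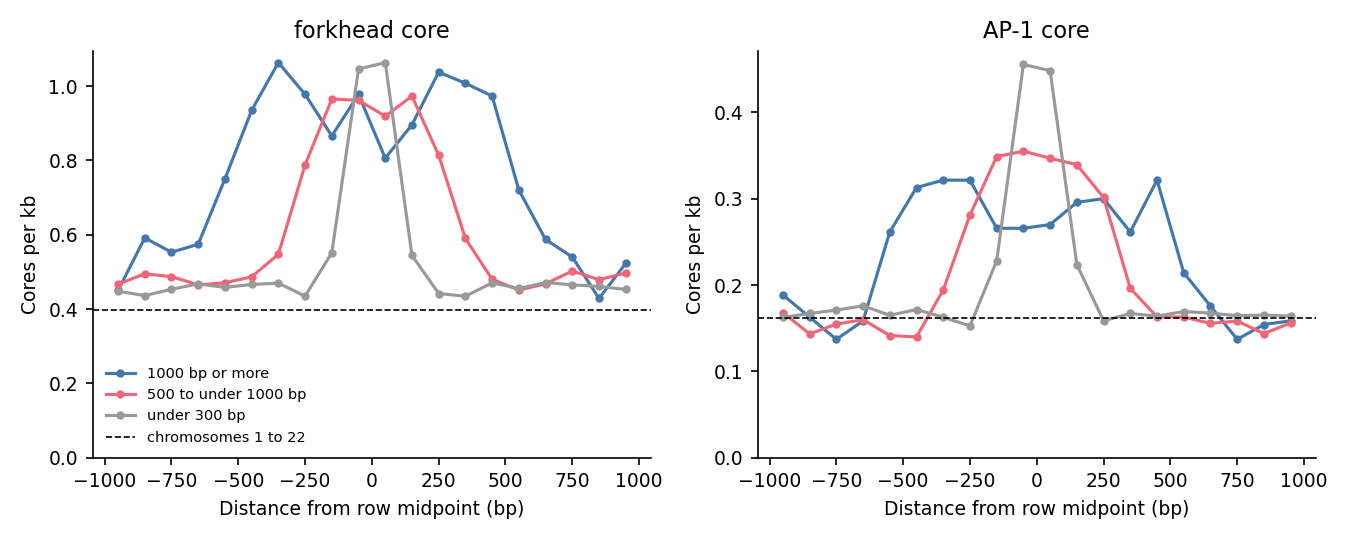
Forkhead (left) and AP-1 (right) cores per kb are plotted in 100 bp bins of distance (bp) from the row's midpoint for 3 width classes, with the density over chromosomes 1 to 22 as a dashed line. In very wide rows forkhead density is raised over a broad zone. It is 1.06 at 350 bp to the left, 0.978 just left of the midpoint and 0.806 just right of it. Rows under 300 bp show a narrow central maximum for both cores.

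Among the other cores, the TEAD core GGAATG, bound by partners of the co-activator YAP and present in 10.6% of 200 bp tiles, stood at 0.558 per kb in very wide peaks, 0.532 in their flanks and 0.624 in the comparison set, a ratio to the latter of 0.895 (0.849 to 0.943). The RUNX core TGTGGT, present in 13.5% of tiles, stood at 0.671 per kb against 0.702 in the flanks. The E-box CAGCTG, present in 6.94% of tiles, stood at 0.272 against 0.280. Neither of these exceeded its flanks. The cyclic AMP response element TGACGTCA, present in 0.0704% of tiles, occurred in 9 very wide peaks (0.386%) and 24 comparison rows (0.0939%), and per kb its ratio between them was 2.204 (1.02 to 4.74), on these few counts. Its density was 0.00317 per kb in very wide peaks, 0.00282 in their flanks and 0.00368 over the chromosomes. In the comparison rows it was 0.00144, against 0.00321 in their flanks, so the ratio went with a low density there. All cores were searched on both strands, and an occurrence was counted even where cores of different names overlapped.

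Most very wide peaks lay inside genes. The centre was in an annotated gene in 86.8% of them, against 81.1% of the comparison set, a difference of 5.67 points (4.16 to 7.07). It was in an intron in 76.2% against 72.8% (3.44 points, 1.59 to 5.21) and in an exon in 10.6% against 8.36% (2.23 points, 1.00 to 3.59), while 13.2% lay between genes. Centres in a coding exon numbered 30 (1.29%). Within 1000 bp of a transcription start lay 225 centres (9.65%), against 8.98%, a difference of 0.66 points whose interval, -0.52 to 1.98, held 0. Within 2500 bp the shares were 24.5% and 20.3%, a difference of 4.16 points (2.39 to 6.01).

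Very wide peaks were thinly spread on some chromosomes. Chromosome 19 held 5 among 987 FOXA1 rows, or 5.07 per 1000, chromosome 17 held 7.18 and chromosome 20 held 8.30 per 1000. Chromosome 14 had the highest rate, 18.6, and chromosome 2 the highest number, 249. The median GC of FOXA1 rows was 34.5% on chromosome 19 and 32.7% on chromosome 14.

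A total of 1526 of 19222 protein-coding genes (7.94%) had a very wide peak in the body or within 10 kb. Long genes offer more room, and the share was 1.57% of genes under 20 kb, 7.54% from 20 to under 100 kb, 21.95% from 100 to under 300 kb and 28.2% from 300 kb. NEGR1, which encodes a neuronal adhesion protein and spans 887 kb on chromosome 1, had 21 among its 320 FOXA1 rows. DST, the gene of the cytoskeletal linker dystonin, had 12, and ASCC3, a helicase gene, and MBNL1, a splicing factor gene, had 9 each.

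PTPRK, a receptor phosphatase gene, had 8 very wide peaks. RBMS3, an RNA-binding protein gene, UTRN, which encodes the dystrophin relative utrophin, COL5A2 and VWA8 had 7 each. VPS13B, NAALADL2 and MAGI2 had 6 each. DPYD, MED13L, BAZ2B, JMJD1C and STAG1 had 5 each, as had ENSG00000283563, a gene model overlapping RBMS3. Of these genes, COL5A2 is one of the fibroblast matrix list and none is in the other lists described here.

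The 21 very wide peaks of NEGR1 ran from 2.83 to 802 kb downstream of the gene's start. Their widths were 1019 to 2370 bp with a median of 1125 bp, and their scores 91 to 496 with a median of 272. FOXA1nhaa overlapped 18 of them and FOXA1dbd 3, and 15 held a forkhead core. The widest lay 2.83 kb from the start, with a score of 466, 3 FOXA1nhaa peaks and 1 FOXA1dbd peak. At DST the variants overlapped more evenly, with FOXA1nhaa on 12 of 12 and FOXA1dbd on 6. No peak at NEGR1 overlapped HNF4A, and 1 at DST did.

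Gene lists for this cell type and for liver, a tissue where FOXA1 normally acts, were set against the 7.94% of all protein-coding genes. Of the fibroblast matrix genes 11 of 34 (32.4%) had a very wide peak, with a median gene length of 66.9 kb. COL5A2, which encodes a fibrillar collagen chain, had 7, with scores of 168 to 649, and FOXA1nhaa overlapped all 7 and FOXA1dbd 3. COL12A1, a collagen gene, DCN, the decorin gene, FBN2, a fibrillin gene, and LOX, which encodes a collagen cross-linking enzyme, had 2 each. At DCN a 2202 bp peak of score 332 stood 2.63 kb downstream of the start and a 1074 bp peak of score 541 stood 37.8 kb downstream. At LOX a 1198 bp peak of score 399 and a 2058 bp peak of score 215 stood 5.71 and 16.1 kb downstream, the second of them with 4 FOXA1nhaa peaks. By gene length, 3 of 6 matrix genes under 20 kb had a very wide peak, against 1.57% of all genes of that length, 3 of 19 from 20 to under 100 kb, against 7.54%, 4 of 8 from 100 to under 300 kb, against 21.95%, and the only one from 300 kb. FOXA1 rows of any width were also frequent at these genes: 88.2% had any FOXA1 row, with a median of 7.5 rows, against 69.0% and 2 for all protein-coding genes.

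Actin and adhesion genes had very wide peaks in 7 of 29 cases (24.1%), with 3 at LPP, 2 each at the integrin gene ITGA1 and at PALLD, and 1 each at ACTA2, the smooth muscle actin gene, and ITGA11. YAP and TEAD genes had them in 6 of 22 (27.3%), among them WWTR1, which encodes the co-activator TAZ, TEAD1, VGLL3, VGLL4 and SAV1 with 1 each. Of the 6, 5 were among the 8 genes of that list from 100 to under 300 kb, and any FOXA1 row was present at 90.9% of the list, with a median of 13.5 rows. TGF-beta and SMAD genes had them in 4 of 29 (13.8%), with 2 peaks at SMAD2 and 1 each at TGFBR2, BMPR2 and SMURF1. Fibroblast transcription factor genes had them in 5 of 35 (14.3%), with 2 each at BNC2 and ZEB2 and 1 each at TWIST1, TWIST2 and ZEB1. No AP-1 subunit gene of 16 had one, on a median length of 9.27 kb, with 13 of them under 20 kb. Hepatocyte genes had them in 2 of 39 (5.13%), CYP2E1, a cytochrome P450 gene, and FGB, a fibrinogen chain gene, with a median length of 13.9 kb over the list. Any FOXA1 row was present at 93.1% of the actin and adhesion genes, 82.8% of the TGF-beta and SMAD genes, 77.1% of the fibroblast transcription factor genes, 62.5% of the AP-1 subunit genes and 64.1% of the hepatocyte genes. Gene length and the number of FOXA1 rows of any width thus moved with these shares, and their part in them was not tested.

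**Figure D5:**
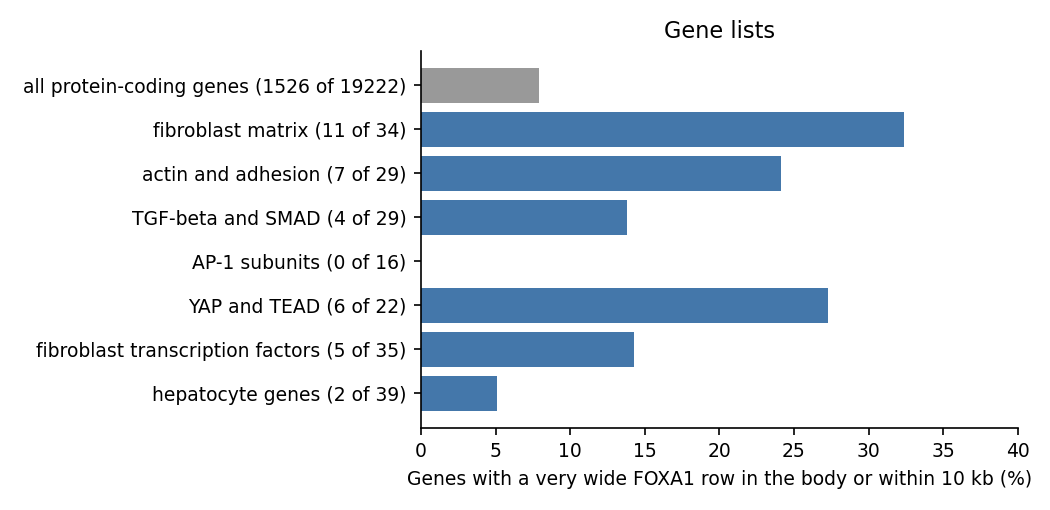
Bars give the share (%) of genes in each list with a very wide FOXA1 row in the gene body or within 10 kb, with the number of genes in brackets and all protein-coding genes in grey. The fibroblast matrix list reaches 32.4% and the AP-1 subunits 0, against 7.94% of all protein-coding genes.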

How the data were processed

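The data were peak lists of HALO ChIP-seq in BJ fibroblasts, 1 list per construct, plus a down-sampled FOXA1 list. That list overlapped 554 of the very wide peaks (23.8%) by at least 1 bp. The share was 24.4% for the comparison rows and 24.7% for rows under 300 bp. The submitters' processing notes name Bowtie2 2.3.4.1, Picard, GATK 4.2.6.0, bedtools 2.27.1, MACS2 2.2.7.1, deepTools 3.5.0 and hg19, without roles or order. Pooling of libraries, use of inputs and read depth are not given in the sources used here. A score is the only measurement in the deposited FOXA1 lists. For the other 4 constructs the authors deposited a score, a fold enrichment (ratio), a summit offset and the −log10 p and −log10 q that the peak caller assigned. These values belong to single peaks and only describe peaks within a list. The H2B samples were not analysed here.

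Width was end minus start, and rows were used as deposited. Sequence and genes came from GRCh37 with GENCODE 44 lifted to it. Very wide peaks were compared with FOXA1 rows of 500 bp up to under 1000 bp. Shares have Wilson 95% intervals, and differences of shares have Newcombe intervals and were called where the interval excluded 0. Peaks are not replicates, so no p-value was computed. A summit outside its own row was left out. Among the rows shared by the FOXA1 and FOXA1rraa lists, it lay inside for 226 of 235 very wide peaks and 4155 of 4435 comparison rows. Whether the other deposited summit offsets match the starts of their rows was not tested. The named peaks were the 5 widest, the 5 of highest score, those with the most FOXA1nhaa peaks, forkhead cores and AP-1 cores, the highest-scoring ones met by all 4 and by none of the other lists, and the one with the strongest HNF4A peak. The named genes were the 20 with the most very wide peaks and up to 5 per list, some of which are not reported here. The peaks and gene lists were chosen with earlier results of these data known. Of the listed genes 34 of 36 matrix, 29 of 30 actin and adhesion and 39 of 42 hepatocyte symbols matched on chromosomes 1 to 22. The code was tested on simulated data. Python 3.11.15, numpy 2.4.6, pandas 2.3.3, scipy 1.17.1 and matplotlib 3.10.9 were used.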

Additional observations from a re-analysis of the deposited data

How the results depend on the processing

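Of 57 alternative values, 28 kept their direction and their side of the threshold. The number of very wide peaks was 3762 with rows of the same name joined and 228 at 1500 bp. All other values are differences in percentage points, very wide peaks minus comparison rows. With all narrower rows as the comparison they were 7.72 for FOXA1dbd, 30.3 for FOXA1nhaa, 35.0 for FOXA1rraa, -0.53 for HNF4A, -2.76 for the forkhead core and -3.06 for the AP-1 core. In the highest-scoring 10% they were -7.87 for FOXA1dbd, -0.40 for FOXA1nhaa and -4.38 for FOXA1rraa, or 2.57 for FOXA1rraa without the rows that are FOXA1 rows, a combination chosen after seeing the data, as was the same list in the central 100 bp, at 6.96. With peak names that occur once the FOXA1dbd difference was -2.07. From 1500 bp they were 0.63 for FOXA1dbd, 2.92 for FOXA1rraa, 1.09 for the forkhead core and -0.81 for the AP-1 core, over 228 peaks. In the central 100 bp they were -3.27 for FOXA1dbd, 1.40 for FOXA1nhaa, -0.31 for FOXA1rraa, -1.48 for the forkhead core and -0.35 for the AP-1 core. Over the whole row they were 16.2 for FOXA1dbd, at an overlap of 1 bp and of 50% of the shorter peak alike, 1.19 and 1.05 for HNF4A, 21.5 for the forkhead core and 10.3 for the AP-1 core, where the longer row itself adds room. Windows on summits, chosen after seeing the data, gave 0.84 for the forkhead core at FOXA1dbd summits and -1.01 and -0.88 for the AP-1 core at FOXA1nhaa and FOXA1dbd summits. Within 2500 bp of a transcription start the difference was 4.16. Apart from the row length named, the cause of these changes was not tested. No paired analysis was possible because a single list stands for both libraries of a construct, which also means that leaving out a replicate could not be tried. The lists hold no read counts, so depth limits cannot be given.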
